A study of Mus musculus with 4 samples.

Results

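In G1E cells, a mouse erythroblast line that lacks the transcription factor GATA-1, 48 genes were lower with every form of GATA-1 studied. RNA-seq had been done on 4 groups with 1 sample each: cells given the wild-type protein (GATA-1 WT), the mutant GATA-1 2RA or the mutant GATA-1 V205M, and G1E cells of control genotype. All 4 samples, the control included, had undergone β-estradiol induction. Which residues differ in 2RA is not stated in the labels, nor is how the GATA-1 forms were introduced or whether a group is 1 clone. The authors' 6 tables, 1 per pair of groups, hold the genes whose adjusted p-value was under 0.01 and whose change was above 2-fold. Of 2982 genes in these tables, 1157 had a level in all 4 groups, and 48 of them (4.15%) met the selection. Every one of the 1157 was thus listed as changed between some groups, so shares over them are not shares over all expressed genes. A level here is the authors' read count of a gene divided by the size factor of its library, called scaled reads. A gene was taken when its level with GATA-1 WT, with GATA-1 2RA and with GATA-1 V205M was at most 50% of the control, when 2RA and V205M lay within 2-fold of each other, and when its highest group had at least 50 scaled reads. Solute carrier, histone and mitochondrially encoded genes and a few named genes were left out by symbol, which removed 9 of 57 genes. The differences from the control and the likeness of the 2 mutants were thus what chose the genes. They are given as a description, with no test.

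GATA-1 binds the DNA letters GATA through its zinc fingers and both activates red cell genes and lowers genes of progenitors and of other blood lineages. Its N-terminal zinc finger binds the cofactor FOG-1 (Zfpm1), and the V205M change is known to weaken that contact. Repression by GATA-1 has been described both with FOG-1 and without it, and G1E cells with GATA-1 restored are a common model of red cell maturation.

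Every GATA-1 form carried more Gata1 RNA than the control, at 2652 scaled reads with GATA-1 WT, 1421 with GATA-1 2RA and 613 with GATA-1 V205M, against 153 in the control. The deposited levels could be turned back into whole reads, and these showed 2 count columns each for GATA-1 V205M and the control and 1 for either other group. The sources used here do not say whether such columns are separate cultures or repeat runs. Summed over listed genes, the columns held 276064 to 2178397 reads, the fewest in the second column of the control. With 1 sample a group, no difference below can be checked against replicates. The 95% intervals come from the recovered reads and cover counting error only. Of 10 mast cell and basophil markers 6 were in the tables, and their summed level was also lower in every form, at 194 scaled reads with GATA-1 WT, 2440 with GATA-1 2RA and 3315 with GATA-1 V205M, against 5612 in the control. Of these 6, Cpa3 and Kit were lower in every form, though Kit only slightly with GATA-1 2RA (2218 scaled reads, against 2429 in the control). Tpsab1 and Hdc were higher than the control with both mutants and Ms4a2 and Il1rl1 with GATA-1 V205M. Cpa3 made up 2795 of the control's sum and 14.6 of that with GATA-1 V205M. Without Cpa3 the sum with GATA-1 V205M would lie above the control's. Of 8 erythroid markers 7 had a level in all groups, with sums of 61441 with GATA-1 WT, 4242 with GATA-1 2RA and 1360 with GATA-1 V205M, against 2306 in the control. None of the neutrophil and macrophage, lymphocyte and endothelial markers was in the tables. The part of such shifts in the levels of the 48 genes was not tested, and fewer cells of a type and less RNA per cell cannot be told apart in bulk samples.

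The 48 genes held 3217 scaled reads with GATA-1 WT, 4025 with GATA-1 2RA and 3678 with GATA-1 V205M, against 12161 in the control. The median gene stood at 22.4% of the control with GATA-1 WT (range 0.760% to 48.5%), at 34.9% with GATA-1 2RA (1.72% to 48.7%) and at 31.2% with GATA-1 V205M (1.73% to 49.9%). Over all 1157 genes the medians were 186%, 133% and 116% in the same order of forms, and 353, 254 and 287 of these genes lay at or under 50%. At most 25% of the control level was left in 28 genes with GATA-1 WT, in 15 with GATA-1 2RA and in 18 with GATA-1 V205M, and at most 10% in 8, 4 and 6 genes. The 48 genes therefore span genes that were nearly silent in every form and genes just past the 2-fold limit. In the control the 48 genes lay between 66.4 and 1137 scaled reads, with a median of 187.

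By the authors' deposited tables, 44 of the 48 genes were listed as lower in all 3 forms, 3 in 2 forms and 1 in 1 form. By form, 47 were listed with GATA-1 WT, 45 with GATA-1 2RA and 47 with GATA-1 V205M, where the authors listed as lower 4.86%, 2.61% and 3.32% of 12931 tested genes. Nothing can be read from this count, since the selection used the same contrasts and all of them share 1 control. Tmem109 was listed with GATA-1 WT only, Dusp7 and Lasp1 were missing for GATA-1 2RA, and Hecw1 was missing for GATA-1 WT. For 18 of the 48 genes the upper limit of the counting interval lay above 50% of the control in at least 1 form, which was so for 8 genes with GATA-1 WT, 9 with GATA-1 2RA and 9 with GATA-1 V205M.

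**Figure D1:**
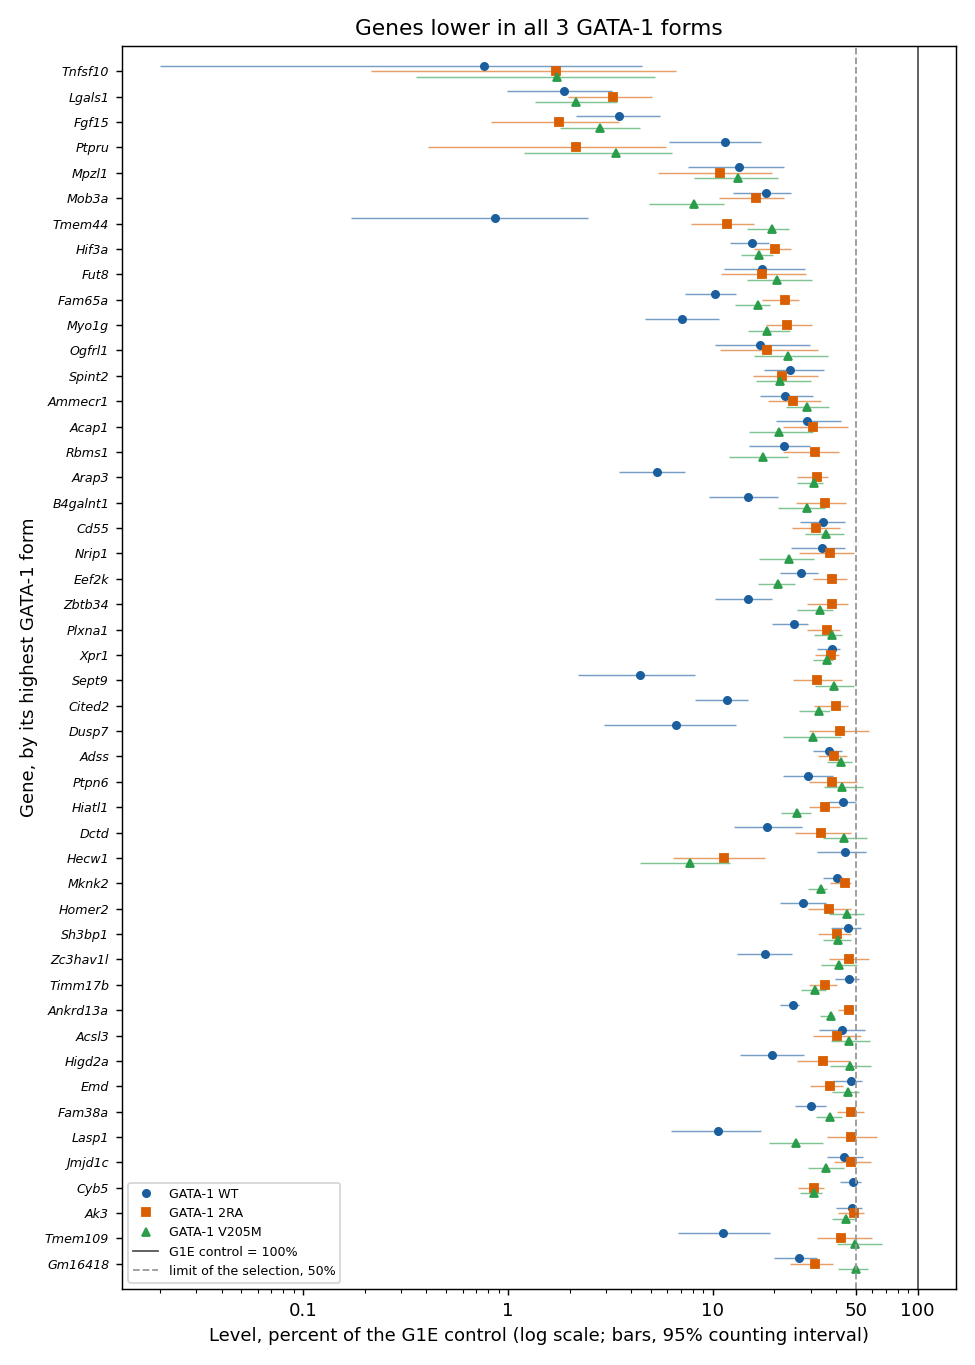
Level of each of the 48 genes with GATA-1 WT (circles), GATA-1 2RA (squares) and GATA-1 V205M (triangles) as a percent of the G1E control on a log scale, with bars for the 95% counting interval and the control drawn at 100%. All points lie at or left of the 50% limit that chose the genes, and Tnfsf10, Lgals1 and Fgf15 at the top lie far left in every form.

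Near the limits the choice of genes was narrow. Just inside the 50% limit the highest form stood at 48.5% of the control for Cyb5, 48.7% for Ak3, 49.2% for Tmem109 and 49.9% for Gm16418. Just outside lay Klf10 at 52.3%, Ywhaz at 53.6% and Scamp4 at 53.9%. For the likeness of the mutants, Lasp1 (1.86-fold apart) and Mob3a (2.00-fold) were just inside, and Arl15 (2.01-fold) and Elf4 (2.07-fold) just outside. The lowest control level inside was that of Ogfrl1 with 66.4 scaled reads, and C2cd4a with 43.7 fell short of the minimum.

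All 48 genes were matched to the GENCODE M21 annotation of GRCm38, 4 of them by an older symbol, and lay on 18 chromosomes. Closest neighbours were Mknk2 and Mob3a on chromosome 10, with 7.14 kb between them, and Sh3bp1 and Lgals1 on chromosome 15, with 14.7 kb. For 37 genes the RefSeq table for GRCm38.p6 held a promoter window of 300 bases, 250 before and 50 after the gene start. No window held AGATAA or TGATAA, the forms GATA-1 favours, on either strand (0 of 37, 95% exact binomial upper limit 9.49%), against 13.7% of 774 promoters of genes with 4 levels and 19.0% of all 27025 promoters. GATAAG, whose matches overlap those forms, was likewise in 0 of 37, against 8.40% and 7.43%. The GC box GGGCGG was in 29 of 37 windows (78.4%, 61.8% to 90.2%), against 65.6% and 35.9%. Their median GC content was 69.0%, against 61.3% for promoters of genes with 4 levels and 52.7% for all promoters. CANNTG, the E-box, was in 56.8% of the windows (63.6% and 72.1% in the backgrounds), TGTGGT, a RUNX motif, in 2.70% (12.02% and 16.9%) and GGAAGT, an ETS motif, in 18.9% (25.6% and 24.1%), each searched on both strands. These matches describe letters in a short window around the start and say nothing of binding there or farther away.

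When every annotated start of the 37 genes was searched, AGATAA or TGATAA appeared at 2 of 52 starts, both shown because they are the sole such matches. For Eef2k the window is chr7:120850939-120851238 on the + strand, and its match begins 31 bases before that start. For Fut8 the window is chr12:77237854-77238153 on the + strand, and its match, on the opposite strand, begins 243 bases before the start. The neighbours Mob3a (chr10:80701771-80702070, − strand) and Mknk2 (chr10:80676244-80676543, − strand) and the strongly lowered Mpzl1 (chr1:165634492-165634791, − strand) are shown as windows with GC boxes. Capitals mark the GATA letters in the first pair and the GC boxes, on either strand, in the other windows. All are RefSeq GRCm38.p6 sequence, 5′ to 3′ along the gene's strand.
Eef2k, alternative start: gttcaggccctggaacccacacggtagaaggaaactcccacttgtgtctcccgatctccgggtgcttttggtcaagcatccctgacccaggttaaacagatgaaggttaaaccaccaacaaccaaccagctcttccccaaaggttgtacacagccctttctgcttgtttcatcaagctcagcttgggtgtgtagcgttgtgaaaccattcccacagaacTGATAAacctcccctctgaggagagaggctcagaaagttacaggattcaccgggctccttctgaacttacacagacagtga
Fut8, alternative start: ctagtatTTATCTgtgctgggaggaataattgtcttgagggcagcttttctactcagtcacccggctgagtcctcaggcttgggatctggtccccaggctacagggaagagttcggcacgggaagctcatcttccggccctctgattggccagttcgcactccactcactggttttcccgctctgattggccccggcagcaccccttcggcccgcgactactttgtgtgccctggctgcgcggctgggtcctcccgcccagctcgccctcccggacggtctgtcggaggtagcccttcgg
Mob3a: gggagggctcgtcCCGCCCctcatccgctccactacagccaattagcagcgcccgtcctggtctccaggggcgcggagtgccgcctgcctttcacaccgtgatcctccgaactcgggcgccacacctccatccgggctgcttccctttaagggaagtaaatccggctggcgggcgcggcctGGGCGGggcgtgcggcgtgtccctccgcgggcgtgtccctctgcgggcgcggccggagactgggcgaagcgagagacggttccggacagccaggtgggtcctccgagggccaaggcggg
Mknk2: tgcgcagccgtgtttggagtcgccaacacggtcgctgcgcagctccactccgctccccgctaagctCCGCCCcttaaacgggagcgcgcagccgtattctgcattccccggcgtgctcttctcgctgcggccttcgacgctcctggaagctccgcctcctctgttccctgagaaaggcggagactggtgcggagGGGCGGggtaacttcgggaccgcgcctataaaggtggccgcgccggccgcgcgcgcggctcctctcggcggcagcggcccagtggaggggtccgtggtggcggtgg
Mpzl1: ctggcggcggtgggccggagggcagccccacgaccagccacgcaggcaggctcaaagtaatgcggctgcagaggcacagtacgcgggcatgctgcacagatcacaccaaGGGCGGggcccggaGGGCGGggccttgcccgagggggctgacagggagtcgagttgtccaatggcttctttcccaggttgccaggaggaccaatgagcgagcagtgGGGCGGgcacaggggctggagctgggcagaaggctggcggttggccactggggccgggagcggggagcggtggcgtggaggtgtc

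**Figure D2:**
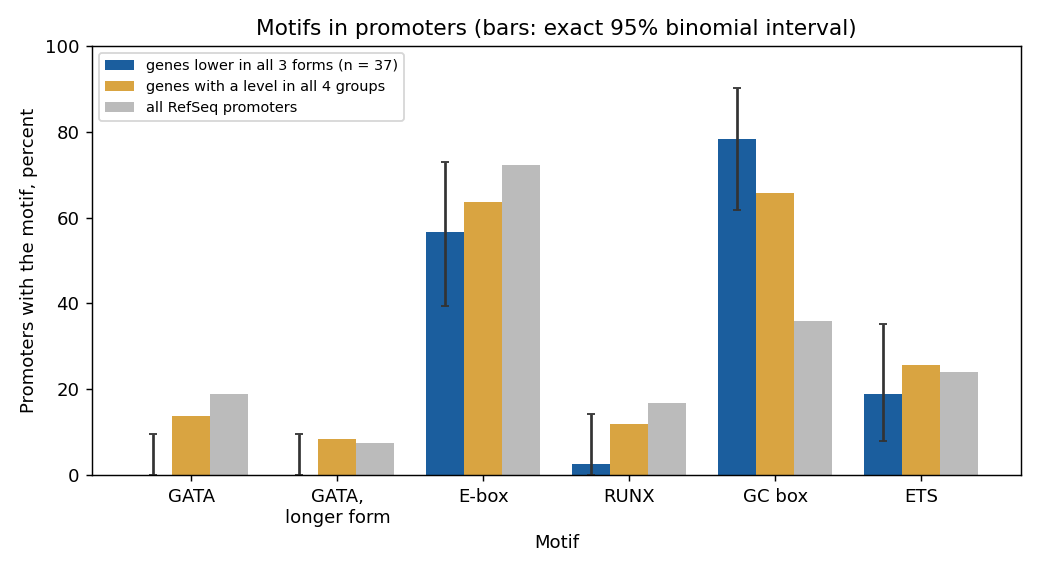
Percent of promoter windows with each motif for the 37 genes with a window (left bars, with exact 95% binomial intervals), the 774 promoters of genes with a level in all 4 groups (middle bars) and all 27025 RefSeq promoters (right bars). No GATA motif is in the 37 windows, and the GC box is in 78.4% of them.

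Secreted proteins, surface receptors and channels included the genes left lowest in every form. Grouped by role after the values were seen, 10 genes fell here, all listed as lower in every form in the authors' deposited tables, with medians of 18.6% with GATA-1 WT, 16.3% with GATA-1 2RA and 17.3% with GATA-1 V205M. Tnfsf10 encodes TRAIL, a ligand that triggers cell death through death receptors, and lies at chr3:27317028-27342427 in GRCm38. Tnfsf10 had 0.630 scaled reads with GATA-1 WT, 1.43 with GATA-1 2RA and 1.43 with GATA-1 V205M, against 82.9 in the control. These levels rest on 1 read with GATA-1 WT, 2 with GATA-1 2RA and 3 with GATA-1 V205M, so the gene was near the lowest recorded count in every form. No count column held a value under 1, and the sources used here do not say if 1 had been added throughout, so ratios to levels of 1 to 3 reads, here and for Tmem44 and Ptpru, apply to the counts as deposited. Its level was 132-fold lower with GATA-1 WT (95% counting interval 22.2 to 5017), 58.0-fold lower with GATA-1 2RA (15.0 to 464) and 57.9-fold lower with GATA-1 V205M (19.1 to 281).

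Fgf15, a secreted growth factor best known as the gut hormone that lowers bile acid synthesis in the liver, lies at chr7:144896531-144900953. It had 12.6 scaled reads with GATA-1 WT, 6.43 with GATA-1 2RA and 10.2 with GATA-1 V205M, against 360.4 in the control. The control's count columns read 349 and 372 and those of GATA-1 V205M 10.3 and 10.02. For other genes the columns of GATA-1 V205M were less alike, at 12.9 and 6.01 for Lgals1, 1.72 and 5.01 for Ptpru and 7.74 and 18.03 for Mob3a, so these V205M levels depend on the column by over 1.5-fold. Fgf15 was 28.6-fold lower with GATA-1 WT (18.02 to 46.4), 56.1-fold lower with GATA-1 2RA (28.8 to 121) and 35.5-fold lower with GATA-1 V205M (22.7 to 56.0). Of its exonic bases 25.7% are shared with genes on the opposite strand, whose reads cannot be told apart without strand. Lgals1, the sugar-binding protein galectin-1 at chr15:78926725-78930465, had 8.19 scaled reads with GATA-1 WT, 14.3 with GATA-1 2RA and 9.45 with GATA-1 V205M, against 438 in the control. Its level was 53.5-fold lower with GATA-1 WT (31.2 to 101), 30.6-fold with GATA-1 2RA (19.8 to 50.7) and 46.3-fold with GATA-1 V205M (29.4 to 73.7), and counting error does not separate the mutants from GATA-1 WT.

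Ptpru, a receptor-type tyrosine phosphatase, had 11.3 scaled reads with GATA-1 WT, 2.14 with GATA-1 2RA and 3.36 with GATA-1 V205M, against 99.4 in the control. More was left with GATA-1 WT than with either mutant beyond counting error, and these levels rest on 18, 3 and 7 reads. Mpzl1, a surface glycoprotein that binds the phosphatase SHP-2 and whose promoter window is printed above, had 10.7 scaled reads with GATA-1 WT, 8.57 with GATA-1 2RA and 10.6 with GATA-1 V205M, against 79.4 in the control. Neither mutant differed from GATA-1 WT beyond counting error. Spint2, an inhibitor of serine proteases on the cell surface, stood at 23.7% of the control with GATA-1 WT, 21.8% with GATA-1 2RA and 21.2% with GATA-1 V205M. Cd55, which shields cells from complement, had 56.1 scaled reads with GATA-1 WT, 52.2 with GATA-1 2RA and 57.9 with GATA-1 V205M, against 163 in the control, nearly the same in each form.

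A channel, a transporter and a semaphorin receptor were also in this set. Fam38a, the older symbol of Piezo1, a mechanically gated channel of red cells, had 111 scaled reads with GATA-1 WT, 174 with GATA-1 2RA and 137 with GATA-1 V205M, against 368 in the control. For this gene GATA-1 WT lay below both mutants beyond counting error, and 24.6% of its exonic bases are shared with Ctu2 on the opposite strand. Xpr1, a phosphate exporter, had 213 scaled reads with GATA-1 WT, 211 with GATA-1 2RA and 200.2 with GATA-1 V205M, against 556 in the control, and neither mutant was apart from GATA-1 WT beyond counting error. Plxna1, a receptor for semaphorins, had 74.3 scaled reads with GATA-1 WT, 109 with GATA-1 2RA and 114 with GATA-1 V205M, against 299 in the control, and both mutants lay above GATA-1 WT beyond counting error.

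**Figure D3:**
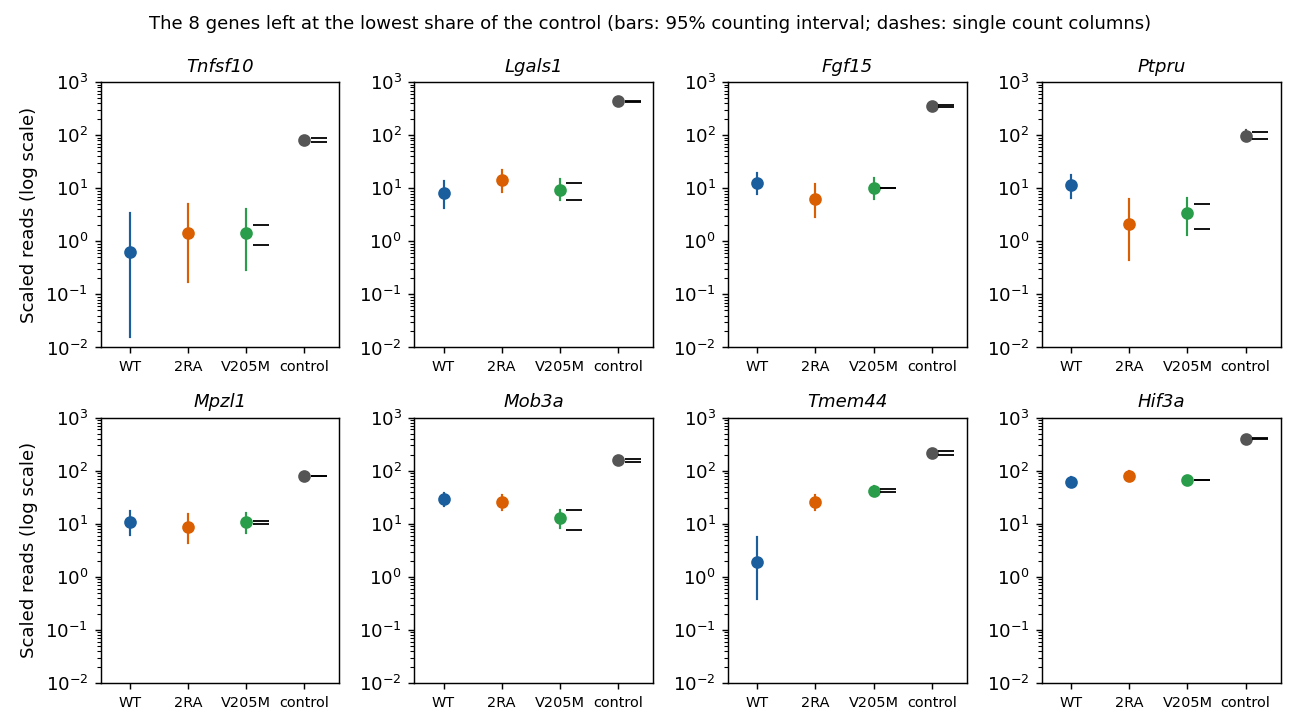
Scaled reads on a log scale for GATA-1 WT, GATA-1 2RA, GATA-1 V205M and the G1E control for the 8 genes whose highest form kept the smallest share of the control, with bars for the 95% counting interval and dashes for single count columns. In Tnfsf10, Lgals1 and Fgf15 every form lies far below the control, and in Tmem44 GATA-1 WT lies below both mutants.

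Kinases and phosphatases inside the cell, with Mob3a placed among them, formed a second set of 5 genes. Their medians were 26.9% with GATA-1 WT, 38.3% with GATA-1 2RA and 30.7% with GATA-1 V205M. Mknk2, a kinase that phosphorylates the cap-binding factor eIF4E, had 265 scaled reads with GATA-1 WT, 289 with GATA-1 2RA and 222 with GATA-1 V205M, against 657 in the control. Its neighbour Mob3a, of the MOB family of kinase activators, had 29.0 scaled reads with GATA-1 WT, 25.7 with GATA-1 2RA and 12.9 with GATA-1 V205M, against 159 in the control, though 59.0% of its exonic bases are shared with a gene on the opposite strand. The neighbours thus differed in how much was left, 18.2% of the control with GATA-1 WT, 16.2% with GATA-1 2RA and 8.10% with GATA-1 V205M for Mob3a, and 40.2% of the control with GATA-1 WT, 44.0% with GATA-1 2RA and 33.7% with GATA-1 V205M for Mknk2. Eef2k, the kinase that slows translation elongation and carries a GATA motif at its alternative start, had 73.1 scaled reads with GATA-1 WT, 104 with GATA-1 2RA and 56.6 with GATA-1 V205M, against 272 in the control. Ptpn6, the phosphatase SHP-1 that dampens cytokine signalling in blood cells, had 42.8 scaled reads with GATA-1 WT, 56.4 with GATA-1 2RA and 63.3 with GATA-1 V205M, against 148 in the control. Dusp7, a phosphatase of ERK kinases, had 5.67 scaled reads with GATA-1 WT, 35.7 with GATA-1 2RA and 26.2 with GATA-1 V205M, against 85.2 in the control, and kept 6.30-fold the GATA-1 WT level with GATA-1 2RA (95% counting interval 3.07 to 14.6) and 4.62-fold with GATA-1 V205M (2.29 to 10.7).

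Regulators of small GTPases and of the cytoskeleton made up 7 genes and included several of the steepest steps between GATA-1 WT and the mutants. Their medians were 10.3% with GATA-1 WT, 32.2% with GATA-1 2RA and 25.5% with GATA-1 V205M, and GATA-1 WT was the lowest form in 5 of 7. Arap3, which switches off Arf GTPases in response to PI3-kinase lipids, had 20.2 scaled reads with GATA-1 WT, 121 with GATA-1 2RA and 118 with GATA-1 V205M, against 377 in the control. Sept9, a septin of the filament cytoskeleton, had 6.93 scaled reads with GATA-1 WT, 50.7 with GATA-1 2RA and 61.6 with GATA-1 V205M, against 157 in the control. In both genes the mutants lay close to each other and far above GATA-1 WT. Arap3 was 6.03-fold the GATA-1 WT level with GATA-1 2RA (4.11 to 9.09) and 5.84-fold with GATA-1 V205M (4.03 to 8.71). Sept9 was 7.32-fold (3.85 to 15.3) and 8.89-fold (4.77 to 18.1) in the same order. Myo1g, a class I myosin of blood cells, had 16.4 scaled reads with GATA-1 WT, 53.6 with GATA-1 2RA and 42.6 with GATA-1 V205M, against 233 in the control. Fam65a (Ripor1) had 35.9 scaled reads with GATA-1 WT, 78.6 with GATA-1 2RA and 57.9 with GATA-1 V205M, against 349 in the control, and Lasp1, a LIM domain protein on actin, had 11.97 scaled reads with GATA-1 WT, 53.6 with GATA-1 2RA and 28.8 with GATA-1 V205M, against 113 in the control. All 5 of these genes had both mutants above GATA-1 WT beyond counting error. Acap1, which switches off Arf6, had 26.5 scaled reads with GATA-1 WT, 28.6 with GATA-1 2RA and 19.5 with GATA-1 V205M, against 92.2 in the control, and Sh3bp1 had 129.7 scaled reads with GATA-1 WT, 114 with GATA-1 2RA and 117 with GATA-1 V205M, against 284 in the control. In this pair neither mutant differed from GATA-1 WT beyond counting error, and 64.5% of the exonic bases of Sh3bp1 are shared with other genes.

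Factors of transcription and RNA binding were 6 genes, with medians of 18.9% with GATA-1 WT, 37.7% with GATA-1 2RA and 28.3% with GATA-1 V205M. Hif3a, a member of the hypoxia-inducible factor family that can dampen its relatives, had 62.4 scaled reads with GATA-1 WT, 80.7 with GATA-1 2RA and 67.6 with GATA-1 V205M, against 403 in the control. Its count columns read 67.0 and 68.1 with GATA-1 V205M and 416 and 389 in the control. Cited2, which binds the coactivators CBP and p300 and competes with hypoxia-inducible factors, had 32.1 scaled reads with GATA-1 WT, 109 with GATA-1 2RA and 89.9 with GATA-1 V205M, against 273 in the control. Cited2 was lower with GATA-1 WT than in either mutant beyond counting error, and for Hif3a no such difference was seen. Zbtb34, a zinc finger gene, had 29.0 scaled reads with GATA-1 WT, 74.3 with GATA-1 2RA and 64.9 with GATA-1 V205M, against 195 in the control, again with both mutants above GATA-1 WT. Nrip1, a corepressor of nuclear receptors, had 38.4 scaled reads with GATA-1 WT, 42.2 with GATA-1 2RA and 26.8 with GATA-1 V205M, against 113 in the control. Rbms1, which binds RNA and DNA, had 27.7 scaled reads with GATA-1 WT, 39.3 with GATA-1 2RA and 21.8 with GATA-1 V205M, against 124 in the control, and Jmjd1c, of the histone demethylase family, had 87.5 scaled reads with GATA-1 WT, 95.02 with GATA-1 2RA and 71.2 with GATA-1 V205M, against 199.8 in the control. In these last 3 genes neither mutant differed from GATA-1 WT beyond counting error.

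Genes of metabolism, mitochondria and glycosylation numbered 9 and were mostly near the limit, with medians of 37.1% with GATA-1 WT, 35.3% with GATA-1 2RA and 42.3% with GATA-1 V205M. Cyb5 (Cyb5a), the electron carrier cytochrome b5, had 278 scaled reads with GATA-1 WT, 179 with GATA-1 2RA and 179 with GATA-1 V205M, against 575 in the control. Timm17b, part of the import channel of the inner mitochondrial membrane, had 205.3 scaled reads with GATA-1 WT, 157 with GATA-1 2RA and 141 with GATA-1 V205M, against 444 in the control. In both, the mutants lay below GATA-1 WT beyond counting error. That was so in 4 of the 48 genes, while both mutants lay above GATA-1 WT in 17. Timm17b with GATA-1 2RA turned, however, to 0.03 above GATA-1 WT on the log2 scale when groups were rescaled to equal summed levels. Ak3, a mitochondrial kinase that passes phosphate from GTP to AMP, had 181 scaled reads with GATA-1 WT, 185 with GATA-1 2RA and 169.7 with GATA-1 V205M, against 380.0 in the control, and Adss, of AMP synthesis, had 131 scaled reads with GATA-1 WT, 139 with GATA-1 2RA and 149.7 with GATA-1 V205M, against 354 in the control. Acsl3, which activates long-chain fatty acids, had 57.3 scaled reads with GATA-1 WT, 54.3 with GATA-1 2RA and 62.2 with GATA-1 V205M, against 134 in the control. For these 3 genes neither mutant differed from GATA-1 WT beyond counting error. Dctd, of thymidylate supply, had 21.4 scaled reads with GATA-1 WT, 39.3 with GATA-1 2RA and 50.5 with GATA-1 V205M, against 116 in the control, and Higd2a, of respiratory chain assembly, had 24.6 scaled reads with GATA-1 WT, 43.6 with GATA-1 2RA and 58.8 with GATA-1 V205M, against 126 in the control. The glycosylation enzymes were Fut8 and B4galnt1. Fut8, which adds core fucose to N-glycans, had 15.7 scaled reads with GATA-1 WT, 15.7 with GATA-1 2RA and 18.5 with GATA-1 V205M, against 90.5 in the control. B4galnt1, which makes the gangliosides GM2 and GD2, had 20.2 scaled reads with GATA-1 WT, 47.9 with GATA-1 2RA and 39.0 with GATA-1 V205M, against 136 in the control. Both mutants lay above GATA-1 WT beyond counting error for Dctd, Higd2a and B4galnt1, and neither did for Fut8.

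The remaining 11 genes had other or less described roles, with medians of 24.8% with GATA-1 WT, 35.4% with GATA-1 2RA and 37.6% with GATA-1 V205M. Ankrd13a, which binds ubiquitin chains on internalised receptors, had the highest control level of the 48, with 282 scaled reads with GATA-1 WT, 527 with GATA-1 2RA and 428 with GATA-1 V205M, against 1137 in the control. Tmem44, a membrane protein at chr16:30511855-30550842, had 1.89 scaled reads with GATA-1 WT, 25.7 with GATA-1 2RA and 42.3 with GATA-1 V205M, against 219 in the control. Its GATA-1 WT level rests on 3 reads, against 36 with GATA-1 2RA and 92 with GATA-1 V205M. Tmem44 was 13.6-fold the GATA-1 WT level with GATA-1 2RA (4.30 to 69.1) and 22.4-fold with GATA-1 V205M (7.47 to 111), the widest gap of the 48 genes. Hecw1, a ubiquitin ligase, ran the other way with 49.8 scaled reads with GATA-1 WT, 12.9 with GATA-1 2RA and 8.80 with GATA-1 V205M, against 113 in the control. With GATA-1 V205M no other of the 48 genes lay farther below GATA-1 WT, and with GATA-1 2RA Ptpru did. Tmem109, a membrane protein, had 11.3 scaled reads with GATA-1 WT, 42.9 with GATA-1 2RA and 49.8 with GATA-1 V205M, against 101 in the control, Zc3hav1l had 32.1 scaled reads with GATA-1 WT, 82.2 with GATA-1 2RA and 73.9 with GATA-1 V205M, against 178 in the control, and both had the mutants above GATA-1 WT beyond counting error. Emd, the nuclear envelope protein emerin, had 137 scaled reads with GATA-1 WT, 109 with GATA-1 2RA and 133 with GATA-1 V205M, against 291 in the control. Hiatl1 (Mfsd14b), a transporter-like protein, had 149 scaled reads with GATA-1 WT, 122 with GATA-1 2RA and 88.7 with GATA-1 V205M, against 345 in the control. Homer2, a scaffold protein, had 49.8 scaled reads with GATA-1 WT, 66.4 with GATA-1 2RA and 81.0 with GATA-1 V205M, against 180.0 in the control. In these 3 genes only 1 of the mutants differed from GATA-1 WT beyond counting error, and for Emd that was GATA-1 2RA, whose log2 difference turned to 0.0777 when groups were rescaled to equal summed levels. Ammecr1 had 36.5 scaled reads with GATA-1 WT, 40.0 with GATA-1 2RA and 46.9 with GATA-1 V205M, against 162 in the control, and Ogfrl1 had 11.3 scaled reads with GATA-1 WT, 12.1 with GATA-1 2RA and 15.5 with GATA-1 V205M, against 66.4 in the control. Gm16418 had 54.8 scaled reads with GATA-1 WT, 65.7 with GATA-1 2RA and 104 with GATA-1 V205M, against 209 in the control, but it is a processed pseudogene with 171 exonic bases, so its counts are uncertain where reads of a near-identical copy were split.

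Most of the 48 genes had more RNA left in the mutants than with GATA-1 WT. The limits on the control level did not set this contrast directly, though they bear on it. GATA-1 2RA was above GATA-1 WT in 33 genes and below in 15, and GATA-1 V205M was above in 29 and below in 19. The median ratio to GATA-1 WT was 1.25 for GATA-1 2RA and 1.17 for GATA-1 V205M, against 0.922 and 0.749 over all 1157 genes. By 2-fold or more, GATA-1 2RA was higher in 13 of the 48 genes and lower in 2, where 29.4% and 32.7% of the 1157 genes passed the same limit. GATA-1 V205M was higher by that much in 13 and lower in 3, where 27.0% and 39.7% passed. The 13 genes are 27.1% of the 48, near the share of the 1157 in both mutants, and the lower ones are 4.17% and 6.25%, below that share. The 1157 genes are no neutral background, since all of them were listed as changed between some groups. The selection bounds these ratios, since a level capped at 50% of the control in every form leaves less room in either direction. Both mutants were 2-fold or more above GATA-1 WT in 11 genes (16.2% of the 1157 genes) and below in 2, Ptpru and Hecw1 (266 of the 1157 genes).

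By the authors' deposited tables, 10 of the 48 genes were listed as higher with GATA-1 2RA than with GATA-1 WT (3.33% of 12931 tested genes) and 1 as lower (4.04%), and for GATA-1 V205M 8 were listed as higher (3.7%) and 1 as lower (5.65%). All 48 came from genes already listed as changed between some groups, which by itself raises their listed shares. Nothing can be read from these counts beside shares of all tested genes. The gene listed as lower was Hecw1 in either mutant, and the 8 genes higher with GATA-1 V205M, among them Arap3, Sept9, Tmem44 and Myo1g, were all also listed as higher with GATA-1 2RA. Between GATA-1 2RA and GATA-1 V205M the selection itself kept every gene under the authors' 2-fold limit. By counting error alone, both mutants were above GATA-1 WT in 17 genes and below in 4, neither differed in 19, and 8 genes were mixed. These classes were not counted over the 1157 genes, so no background stands beside them. GATA-1 WT was the lowest form in 26 genes (54.2%, against 32.2% of the 1157) and the highest in 12 (25%, against 44.5%). GATA-1 2RA was the lowest in 8 (16.7%, against 28.6%) and GATA-1 V205M in 14 (29.2%, against 39.2%). The selection kept only genes well below the control with GATA-1 WT, while the median of the 1157 genes was 186% of the control with that form. The selection itself therefore shifts these shares, and the contrast with the 1157 genes says nothing about the 48. The 3 forms lay within 1.5-fold of each other in 18 genes (37.5%, against 6.48%) and within 2-fold in 30 (62.5%, against 11.9%). The median spread was 1.71-fold, against 3.66-fold over the 1157, and the limit between the mutants had narrowed that of the 48.

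**Figure D4:**
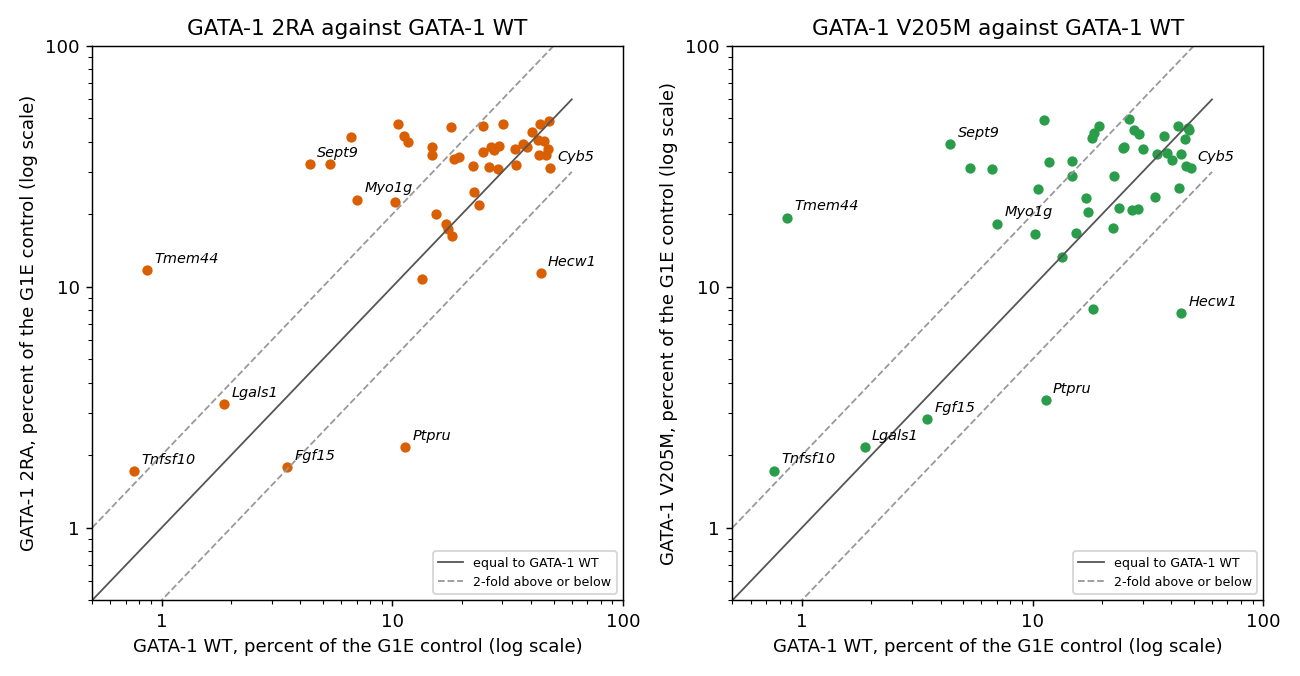
Level with GATA-1 2RA (left) and GATA-1 V205M (right) against the level with GATA-1 WT for the 48 genes, each as a percent of the G1E control on log scales, with a solid line for equal levels and dashed lines for 2-fold above or below. Most points lie near or above the solid line, with Tmem44 and Sept9 farthest above it and Hecw1 and Ptpru farthest below.

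Of 22 gene lists drawn up for blood cells, 6 held any of the 48 genes, and 40 of the 48 were on no list. The share on no list was not worked out for all genes with a level in all 4 groups, so no background stands beside it. Counts on these lists come from the authors' deposited tables against the control. Over 12931 tested genes the shares listed as lower were 4.86%, 2.61% and 3.32%, and as higher 8.17%, 4.86% and 4.83%. These compare only loosely, since list sizes count every symbol drawn up, whether or not the authors tested it. Of 53 cholesterol and fatty acid genes, with Acsl3 among them, 9 were listed as lower with GATA-1 WT, 15 with GATA-1 2RA and 15 with GATA-1 V205M, and 4, 0 and 3 as higher. On this list 6 genes were lower in all 3 forms, and the selection left out some cholesterol and fatty acid genes by name. Acsl3 is thus not the only gene of the list lower in every form. Of 141 adhesion and cytoskeleton genes, with Lgals1 and Myo1g, 12, 4 and 15 were lower and 12, 15 and 9 higher, in the same order of forms. Of 175 transcription factors and chromatin regulators, with Cited2, 18, 6 and 14 were lower and 11, 14 and 9 higher. Of 91 growth factors and cytokines, with Fgf15 and Tnfsf10, 4, 2 and 5 were lower and 2, 1 and 2 higher. Of 108 kinases and phosphatases, with Ptpn6, 7, 1 and 5 were lower and 3, 12 and 3 higher. Of 68 MAPK and cytokine feedback genes, with Dusp7, 5, 1 and 4 were lower and 6, 4 and 4 higher. None of the 48 genes was on the erythroid, stem and progenitor, megakaryocyte or mast cell list, and for mast cells the selection had removed named genes. In that order, these lists held only 38, 16, 7 and 18 genes with a level in all 4 groups. The selection took 4.15% of such genes, so few or none could be expected on each list. Their absence is thus no sign that the 48 genes avoid these lists.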

How the data were processed

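Per the labels' protocols, total RNA of 4 G1E samples, 1 per group, went into libraries with Illumina's TruSeq RNA kit. The submitters' processing notes name the mm10 build and the tools TopHat, Cuffdiff, Cufflinks and deepTools, while the sources used here give no versions and do not say which tool made the tables or whether counting used strand. The authors deposited 6 tables, 1 for each pair of groups, with the mean signal of each group (reads divided by a size factor, as the values themselves show), the ratio of these means (fold), its log2 value, and a p-value with an adjusted p-value, which was over 12931 tested genes in 5 of the tables and not worked out for GATA-1 2RA against GATA-1 V205M. Genes listed there have an adjusted p-value under 0.01 and a change above 2-fold, as the deposited values show. A gene missing from a table is known only through other tables.

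Levels were joined by symbol across tables. Size factors were 1.59 (GATA-1 WT), 1.40 (GATA-1 2RA), 1.16 and 0.998 (columns of GATA-1 V205M), and 1.17 and 0.357 (columns of the control), and 100% of the values came out as whole reads (within 0.001 reads, or a relative 1e-09 where 2 columns were summed). Intervals at 95% for ratios were exact binomial (Clopper-Pearson) on pooled reads, and those for levels exact Poisson. For log2 changes, 1 scaled read was added to each level as a pseudocount. Named genes were those with the highest control level, the lowest and highest share of the control, the widest gap to the mutants, those next to each limit and all on a gene list, and the rest were added to cover all 48. The members and lists were chosen with earlier results of these data known, and roles were assigned afterwards from general knowledge. As an alternative, edgeR 4.0.16 (quasi-likelihood) was run in R 4.3.3 on the recovered reads of 1040 genes with count columns of 1 group taken as replicates, after a test on simulated data. Other work used Python 3.11.15, pandas 2.3.3, NumPy 2.4.6, SciPy 1.17.1 and Matplotlib 3.10.9. Fold limits, minimum level, likeness limit, scaling, pseudocount, single count columns and the promoter window were varied. A gene just outside the 50% limit is not reported here.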

Additional observations from a re-analysis of the deposited data

How the results depend on the processing

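The count of 48 genes became 17 with a 3-fold limit on the control, 13 with a 4-fold limit, 73 with no limit between GATA-1 2RA and GATA-1 V205M, and 75 after rescaling by the median ratio, which held 47 of the 48. Under the other 12 settings it was 38 to 72. With column 1 of GATA-1 V205M alone 47 genes passed, of which 42 were among the 48. With column 2 of the control alone 43 passed, all among the 48. Rescaling moved the median of all 1157 genes against the control by -0.734 or -0.77 on the log2 scale for GATA-1 WT, -0.32 or -0.57 for GATA-1 2RA and -0.31 or -0.24 for GATA-1 V205M (summed level or median ratio). The median log2 change of the 48 genes against the control was -2.12 with GATA-1 WT, and -2.84 (summed level) or -2.875 (median ratio) after rescaling. With GATA-1 2RA it was -1.50, and -2.07 by the median ratio. For GATA-1 V205M against GATA-1 WT it was 0.21, and 0.71 by the median ratio. Genes 2-fold higher with GATA-1 V205M than with GATA-1 WT numbered 13, against 20 by the median ratio and 8 by the authors' deposited table. Genes 2-fold lower numbered 3 with GATA-1 V205M, against 1 with a pseudocount of 5 and 1 by the authors' deposited table, and 2 with GATA-1 2RA, against 1 by that table. Of 240 log2 changes of single genes, 119 (summed level) and 130 (median ratio) shifted past their counting error or changed sign within it. Among those apart from GATA-1 WT beyond counting error, 3 turned round by the summed level and 1 by the median ratio. With GATA-1 2RA, Timm17b went to 0.0312 and Emd to 0.0777 (summed level), and with GATA-1 V205M, Mknk2 went to 0.17 (summed level) and 0.27 (median ratio). The causes of these moves were not tested. The edgeR fit on recovered reads, at an adjusted p-value under 0.01 and a change above 2-fold, called 48 of the 48 genes lower with GATA-1 WT, 48 with GATA-1 2RA and 47 with GATA-1 V205M, where it called 322, 203 and 271 of 1040 genes lower. Nothing can be read from these calls, since the same contrasts chose the genes and columns of 1 sample stood in for replicates. Its common biological coefficient of variation of 0.0518 may be spread between runs of 1 sample. The search of any annotated start was chosen after seeing the data. No paired analysis was possible because each group is 1 sample. Depth limits Tnfsf10, Tmem44 and Ptpru, which had 1 to 3 reads in at least 1 form.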
